A study of Mus musculus with 4 samples.

Results

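Receptors of the interleukin-1 family are encoded side by side on mouse chromosome 1, and the open chromatin of this cluster was examined in fetal γδ thymocytes with and without c-Maf. The 6 genes lie in the order Il1r2, Il1r1, Il1rl2, Il1rl1, Il18r1 and Il18rap over 467 kb, at chr1:40084692-40551707 (GRCm38). Peaks sharing at least 1 bp, from any of the 4 libraries, were joined into a region. A region belonged to the cluster when its nearest protein-coding gene body, within 100 kb, was 1 of these 6. This gave 86 of 171490 regions on the autosomes and X. They divided into 18 regions at Il1r2, 27 at Il1r1, 15 at Il1rl2, 10 at Il1rl1, 13 at Il18r1 and 3 at Il18rap.

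Accessibility had been measured by Omni-ATAC-seq, in which the Tn5 transposase inserts sequencing adapters into open DNA. The cells were thymocytes sorted as CD4- CD8- TCRgd+ CD3e+ CD24+ CD45RBlo from pooled fetuses of embryonic days 17 to 18, of a line backcrossed to C57Bl/6 for 5 generations. WT stands for Maf+/+ Il7r-Cre fetuses and KO for Maf fl/fl Il7r-Cre fetuses, with 2 libraries each, so that Cre driven from Il7r was carried by controls and mutants alike. Il7r is active in lymphoid precursors, so the deletion is not limited to γδ T cells. The labels do not say whether both libraries of a genotype were made from different pools of fetuses, so p-values measure only the spread between these samples, which can be technical.

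Signalling through this family starts when a ligand joins a binding chain to an accessory chain, which recruits MyD88 and IRAK kinases through their intracellular TIR domains. Il1r1 encodes the signalling receptor for IL-1, which together with IL-23 is a known trigger of IL-17 release by γδ T cells, and Il1r2 encodes a decoy without a TIR domain. Il1rl2 encodes the receptor for IL-36, Il1rl1 encodes ST2, the receptor for IL-33, and Il18r1 and Il18rap encode both chains of the IL-18 receptor.

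Windows around the annotated starts, from 250 bases before to 50 after, differed in openness from gene to gene. The 10 windows of the 6 genes are RefSeq sequences (GRCm38.p6, plus strand), and 5 of them are printed to set an open start beside starts with few or no peaks. Capitals mark bases covered by a peak in every library that called the window. Lower case throughout means that no library had a peak there.
Il18r1, chr1:40465371-40465670, peaks in all 4 libraries: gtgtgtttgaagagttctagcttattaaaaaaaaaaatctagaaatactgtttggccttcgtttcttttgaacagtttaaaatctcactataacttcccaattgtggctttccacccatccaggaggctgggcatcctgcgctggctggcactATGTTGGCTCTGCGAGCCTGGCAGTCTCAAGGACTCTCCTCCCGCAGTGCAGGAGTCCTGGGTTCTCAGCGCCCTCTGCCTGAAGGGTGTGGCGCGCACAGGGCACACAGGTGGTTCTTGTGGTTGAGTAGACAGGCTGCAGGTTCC
Il18rap, chr1:40515112-40515411, peaks in WT 2, KO 1 and KO 2: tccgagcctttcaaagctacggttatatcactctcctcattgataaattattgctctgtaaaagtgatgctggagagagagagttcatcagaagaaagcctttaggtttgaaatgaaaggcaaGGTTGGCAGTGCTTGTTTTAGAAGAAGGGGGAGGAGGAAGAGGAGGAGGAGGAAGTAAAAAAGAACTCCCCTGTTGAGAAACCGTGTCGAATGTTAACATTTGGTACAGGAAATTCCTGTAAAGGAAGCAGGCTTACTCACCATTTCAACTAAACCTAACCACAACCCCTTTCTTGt
Il1r1, upstream start, chr1:40224830-40225129, a peak in WT 2 alone: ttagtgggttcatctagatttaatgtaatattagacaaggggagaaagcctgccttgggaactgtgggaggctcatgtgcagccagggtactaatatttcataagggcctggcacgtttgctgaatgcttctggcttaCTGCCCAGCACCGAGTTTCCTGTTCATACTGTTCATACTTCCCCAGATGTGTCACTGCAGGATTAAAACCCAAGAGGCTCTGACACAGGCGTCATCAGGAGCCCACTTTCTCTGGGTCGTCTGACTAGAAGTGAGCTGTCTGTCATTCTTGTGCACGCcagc
Il1r1, downstream start, chr1:40266336-40266635, no peak: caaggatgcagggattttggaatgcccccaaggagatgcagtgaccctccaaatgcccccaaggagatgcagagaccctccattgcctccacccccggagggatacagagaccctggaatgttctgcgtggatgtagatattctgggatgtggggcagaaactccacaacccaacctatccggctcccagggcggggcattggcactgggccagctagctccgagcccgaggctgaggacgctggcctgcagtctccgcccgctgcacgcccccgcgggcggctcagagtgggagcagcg
Il1rl1, upstream start, chr1:40429320-40429619, no peak: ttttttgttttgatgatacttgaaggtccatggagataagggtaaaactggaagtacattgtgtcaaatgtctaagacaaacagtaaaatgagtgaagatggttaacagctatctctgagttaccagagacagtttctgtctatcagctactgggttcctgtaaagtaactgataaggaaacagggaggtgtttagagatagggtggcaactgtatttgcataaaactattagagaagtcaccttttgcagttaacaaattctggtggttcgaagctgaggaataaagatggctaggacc

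The printed Il18r1 window was covered over its last 147 bases in all libraries. Its peak stood at percentile 83.4 in WT 1, 84.7 in WT 2, 90.3 in KO 1 and 84.2 in KO 2. A percentile here is the rank of a peak's deposited fold enrichment among all peaks of its own library, with 100 for the highest, because fold values of separate libraries share no scale. Every library thus had a high peak at the IL-18 binding chain, and the genotypes overlapped. The same peak also reached the overlapping window just upstream. It covered 145 bp of the window of the most downstream start in WT 2, and 3 bp of it in KO 1 and in KO 2. Il1r2 had a peak in its window at percentiles 68.2, 75.1, 66.2 and 75.1 in WT 1, WT 2, KO 1 and KO 2. Il1rl2 had one at percentiles 69.2, 76.9, 78.9 and 58.5 in the same order. The decoy and the IL-36 receptor therefore also had open starts in both genotypes.

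The Il1r1 starts looked different. Its upstream window had a peak in WT 2 alone, at percentile 17.6, and the nearest peak of the other libraries was 2308 to 2318 bp away. Its downstream window had no peak in any library, although it holds 14 CpG and 63.3% G and C, above the medians of 13 and 56.7% over the windows of coding genes. Neither window of Il1rl1 had a peak. The nearest to the upstream one was 75 bp away in KO 1 and 152 bp away in WT 2, at percentiles of 21.6 and 20.8, but 10489 bp away in WT 1 and 7497 bp in KO 2. In all, 4 of the 10 windows, at 3 of the 6 genes, had a peak in all 4 libraries, where 50.8% of the 21044 windows of coding genes did.

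Letters of 7 known motifs were searched in these windows on both strands. The Maf recognition core TGCTGA was found in 2 of the 10 windows, at position 119 of the upstream Il1r1 window and, on the minus strand, position 59 of the downstream Il1rl1 window, and in 18.1% of all windows. The AP-1 motif TGANTCA was in 0 of 10 and in 7.04% of all windows. The ROR core AGGTCA was in 1 of 10 and 14.6% of all, and the RUNX core TGTGGT in 4 of 10 and 14.75% of all. The TCF cores were in 4 of 10 for TTTGAA and 1 of 10 for CTTTGA, which overlap each other in the Il18rap window, against 15.6% and 14.4% of all. The ETS core GGAA was in 10 of 10 and 95.7% of all. Windows of Il18r1 overlap, so 1 match can count in 2 of them. Positions count from 1 at the left end of a window, and a match describes letters, not binding.

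**Figure D1:**
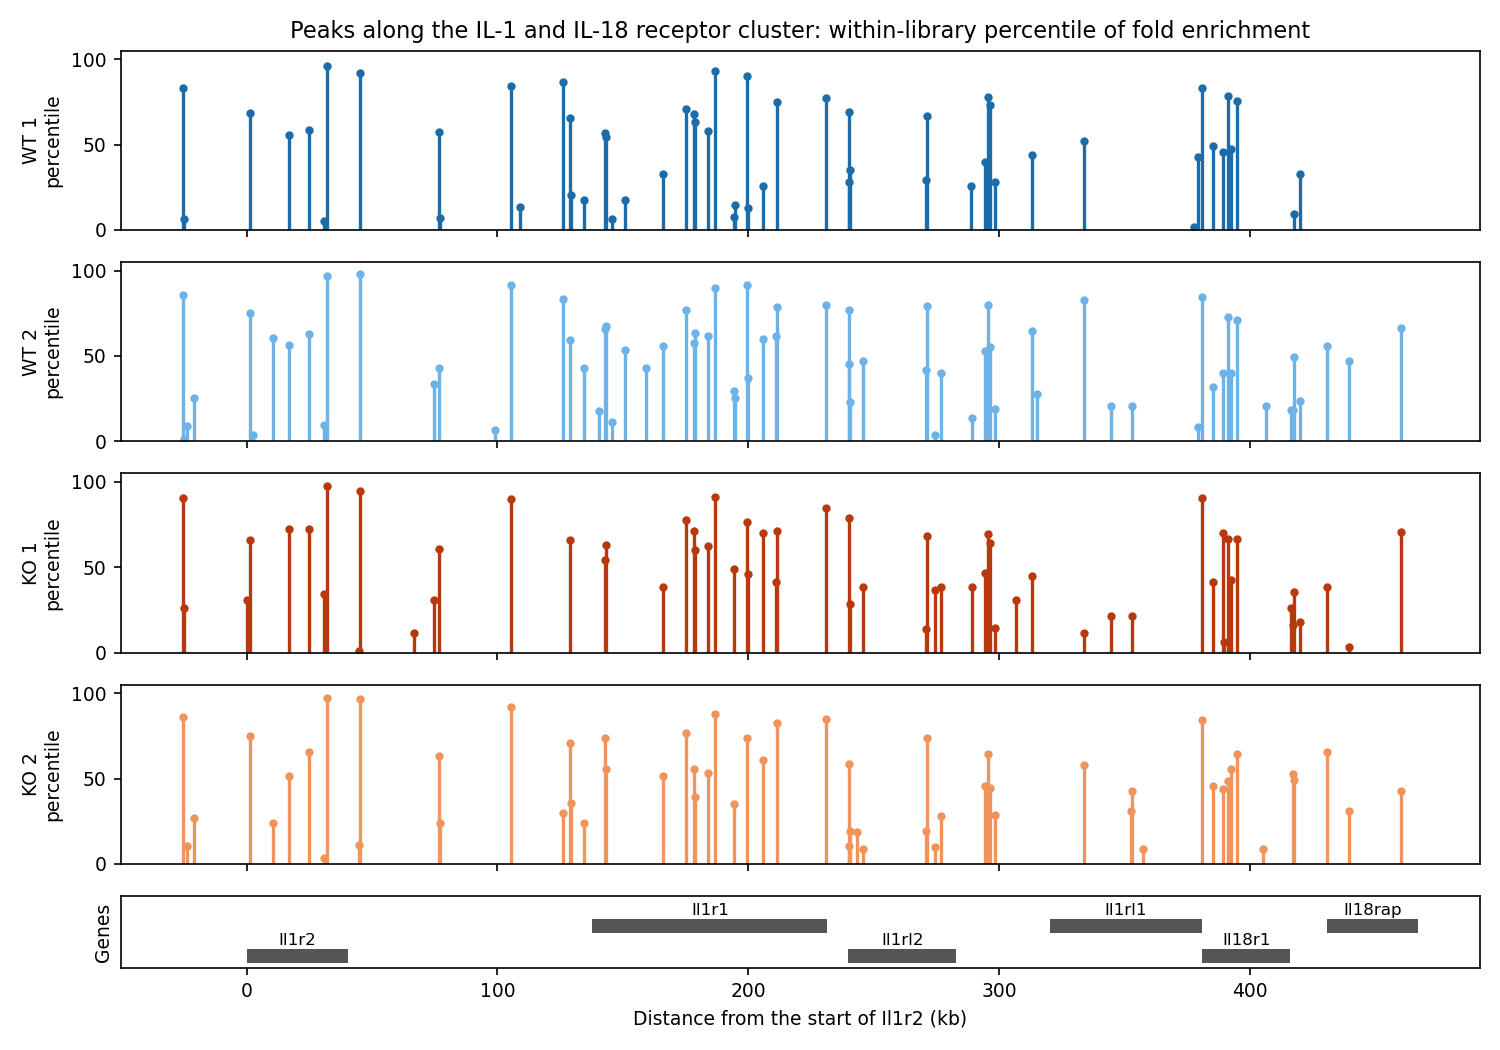
Within-library percentile of fold enrichment (y axis, 0 to 100) of every peak region assigned to the 6 genes, against distance from the start of Il1r2 in kb (x axis), for WT 1, WT 2, KO 1 and KO 2, with the gene bodies as grey bars. The highest stem of each library stands inside or just after Il1r2, and WT 1 has no peak at Il18rap.

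The library lists held 102718 and 132179 peaks in WT 1 and WT 2 and 130935 and 120141 in KO 1 and KO 2 on the autosomes and X. The targeted gene, Maf, had 4 and 3 peaks within 1 kb in WT 1 and WT 2, with a highest −log10 q of 89.9 and 141, against 1 weak peak in each KO library (3.17 and 3.06). Gene ends were then searched for peaks at up to 1 kb. The share of all coding genes with such a peak is not given, so the counts below do not show which cells were present. Among markers of γδ T cells, 7 of 7 matched genes had such a peak in every library, although 0 regions were assigned to Trdc itself. Markers of myeloid and mast cells had one for 4 of 9 genes in every library, namely Spi1, Itgam, Kit and Cebpa. Csf1r, Mpo, Cpa3, Ms4a2 and Fcer1a had none. Markers of group 2 innate lymphoid cells had one for 3 of 4 genes in every library except KO 1 (2 of 4), stromal markers for 2 of 4 except KO 1 (1 of 4), and B cell markers for 1 of 3. Regions at myeloid and mast cell markers were KO-only in 8 of 64 called in at least 2 libraries (12.5%), 4 of them at Kit, and WT-only in 1. Those at stromal markers were KO-only in 7 of 57 (12.3%) and WT-only in 5, where 4.34% were KO-only over the genome. Shared regions of both lists had median differences of 3.24 and 3.62 points toward KO, against 1.22 over the genome. KO-only regions were 2 of 101 (1.98%) at innate lymphoid markers, 1 of 11 (9.09%) at B cell markers and 1 of 85 (1.18%) at γδ T cell markers. The median differences there were −0.582, 5.95 and −0.820 points (KO minus WT). The part of other cell types in the results below was not tested. Il1rl1, which stands in the innate lymphoid list, was counted there through the Il18r1 start peak, which lies next to its end.

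Over the whole cluster the genotypes differed little in peak number, covered base pairs and peak width when list length was left as deposited. The cluster held 56 peaks in WT 1, 72 in WT 2, 62 in KO 1 and 60 in KO 2, a mean of 64.0 ± 11.3 for WT and 61.0 ± 1.41 for KO (SD, n = 2 libraries). The difference of 3 peaks was smaller than the gap between the WT libraries (exact permutation test, p = 1), and without WT 2 KO had 5 more. Peaks covered 11022, 16087, 11815 and 12742 bp in WT 1, WT 2, KO 1 and KO 2, and mean peak width was 197, 223, 191 and 212 bp, close to the 201, 223, 197 and 223 bp of all peaks of those libraries. Wider peaks therefore went with replicate 2 of either genotype, in the cluster as in the genome. With 2 libraries against 2, the smallest two-sided p that the exact permutation test allows is 0.333, so no comparison below can pass 0.05. Per 100000 peaks of a library, the cluster held 54.5 peaks in WT 1 and in WT 2, 47.4 in KO 1 and 49.9 in KO 2, so the genotypes did not overlap on this scale (exact permutation p = 0.333). With the same number of top peaks taken from each library, the difference was −5.5 peaks, KO minus WT (exact permutation p = 0.333).

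Of the 69 cluster regions called in at least 2 libraries, 39 (56.5%) were called in all 4, where 64.2% were over the genome. WT-only regions, called in both WT libraries and in neither KO library, numbered 4 (5.80%), beside 2.89% over the genome. KO-only regions, the reverse, numbered 1 (1.45%), beside 4.34%. Leaving out 1 library, which relaxes both rules, gave 7 to 10 and 1 to 9, without genome shares to set beside them. The WT-only regions were 3 at Il1r1 and 1 at Il1rl1, and the KO-only region was at Il1r2. Once weaker peaks, of a −log10 q under 5, were dropped, no WT-only region was counted at Il1r1, and 1 WT-only and no KO-only region was counted in the cluster.

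Il1r1, the signalling receptor for IL-1, carried the difference in peak number. It had 24 peaks in WT 1, 25 in WT 2, 17 in KO 1 and 18 in KO 2. Both WT libraries stood above both KO libraries, although WT 1 had the shortest list of all (exact permutation p = 0.333). Among the 5083 coding genes with at least 10 regions, 3.84% had more peaks in both WT than in both KO libraries, and 13.2% the reverse. None of the other 4 cluster genes with as many regions did either. Il1r1 took 45.5% and 40.9% of the base pairs that peaks covered in the cluster in WT 1 and WT 2, and 35.1% and 35.2% in KO 1 and KO 2. The surplus lay in weak peaks, since without peaks of a −log10 q under 5 the difference of means was 0.5 peaks in place of 7.

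**Figure D2:**
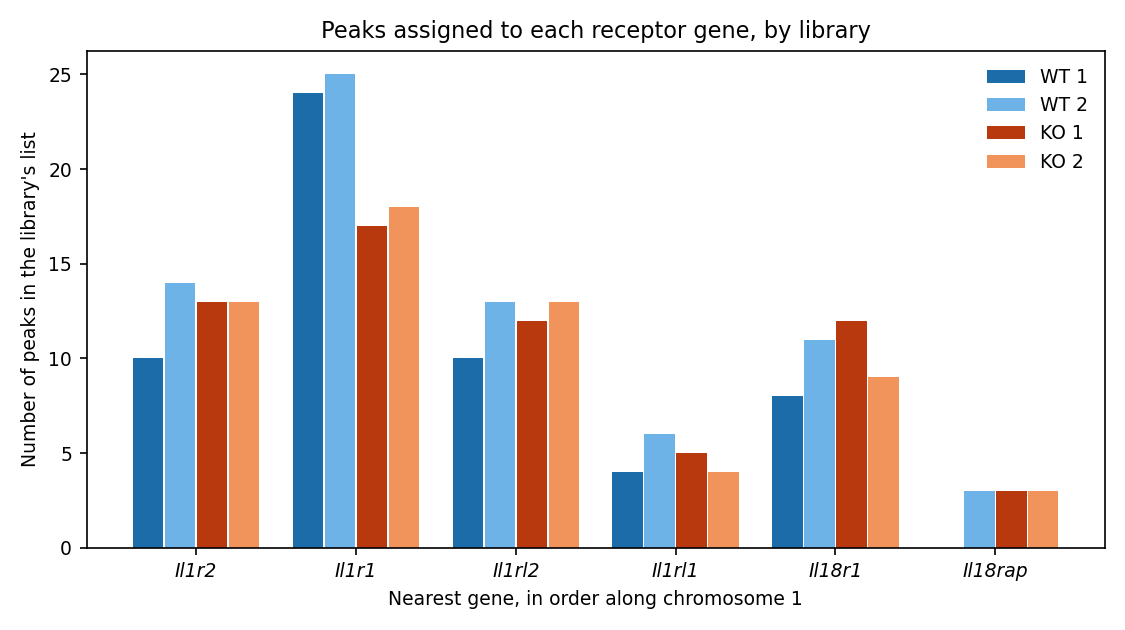
Number of peaks in each library's list (y axis) assigned to each of the 6 genes (x axis, in order along chromosome 1), with 1 bar per library and no error bar. Il1r1 has 24 and 25 peaks in WT, 17 and 18 in KO, and Il18rap has 0 in WT 1 and 3 in each other library.

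The WT-only regions of Il1r1 all lay in the gene body and ranked low to middling. The region at chr1:40230145-40230286 stood at percentile 6.11 in WT 1 and 11.4 in WT 2, and its −log10 q values were 1.95 and 3.28. The region at chr1:40235616-40235739 stood at 17.7 and 53.2, with a −log10 q of 2.91 and 10.4. The region at chr1:40279205-40279427 stood at 14.5 and 25.4, with a −log10 q of 4.12 and 8.10. In each of them the WT 1 peak stood below percentile 18. A missing call at such ranks does not show closed chromatin, because the lists end at a −log10 q of 1.

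A much taller region, outside that count because KO 2 had a weak peak in it, lay 14.2 kb before the upstream start of Il1r1, at chr1:40210616-40210896. It stood at percentile 86.6 in WT 1 and 83.3 in WT 2, was not called in KO 1, and stood at 29.7 in KO 2. Its −log10 q was 37.4, 52.8 and 5.98 in WT 1, WT 2 and KO 2, and its peaks were 269, 281 and 164 bp wide. High in both WT libraries, it was thus low or missing in both KO libraries. Of the 18826 regions of the genome at or above percentile 80 in both WT libraries, 47 (0.250%) were not called in at least 1 KO library. The cluster had 8 regions that high in both WT libraries, and the other 7 were called in both KO libraries. The region, the bound of 80 and this comparison were chosen after the values were seen.

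Inside Il1r1, 17.3 kb after the downstream start, a region called in all libraries ranked lower in KO. At chr1:40283846-40284328 the percentile was 90.1 in WT 1 and 91.6 in WT 2, and 76.5 in KO 1 and 74.0 in KO 2. Its peaks had a −log10 q of 62.3 (WT 1), 125 (WT 2), 23.1 (KO 1) and 28.8 (KO 2). Peak width parted in the same way, with 456 and 450 bp in WT and 329 and 333 bp in KO, while the summits of all 4 libraries lay within 29 bp. The genotypes did not overlap in rank, −log10 q or width, and the percentile was 15.6 points lower in KO on average. Of regions called in all 4 libraries, 13.4% ranked higher in both WT than in both KO libraries, and 21.0% the reverse, so separation alone is common. This region, too, was chosen after its values were seen, as were all regions named below that are neither specific to a genotype, nor the highest of their gene, nor apart by 20 points.

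Not all of Il1r1 moved that way. The region of the gene with the highest mean percentile, chr1:40270965-40271537, lay 4.38 kb after the downstream start and stood at percentile 92.9, 89.9, 91.3 and 88.0 in WT 1, WT 2, KO 1 and KO 2. Its −log10 q of 108, 195, 95.9 and 114 was the highest of the cluster in WT 1, WT 2 and KO 2 and the second highest in KO 1. The genotypes overlapped there, and the summits of all libraries lay within 3 bp.

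At 2 regions of Il1r1, KO ranked higher by over 20 points. At chr1:40278737-40279015 the percentile was 7.38 and 29.2 in WT 1 and WT 2, and 48.8 and 34.9 in KO 1 and KO 2. At chr1:40290615-40290844 it was 25.8 and 59.9 in WT, and 70.3 and 60.7 in KO, so that WT 2 and KO 2 nearly met. Over the genome 4.97% of regions called in all 4 libraries were higher in KO without overlap by at least 20 points, and 2.72% higher in WT. The cluster had 2 of 39 of the former kind and 0 of the latter. Both values rested on WT 1, without which the differences were 12.6 and 5.64 points in place of 23.5 and 22.7. With ranks among shared regions the first was 14.2 points. The WT 1 peaks had a −log10 q of 2.46 at the first and 3.71 at the second. With a −log10 q of at least 5, neither region was thus called in all 4 libraries. Another region of Il1r1, at chr1:40263214-40263471, ranked lower in KO, with percentiles of 63.3 and 63.4 in WT and 59.9 and 39.5 in KO.

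**Figure D3:**
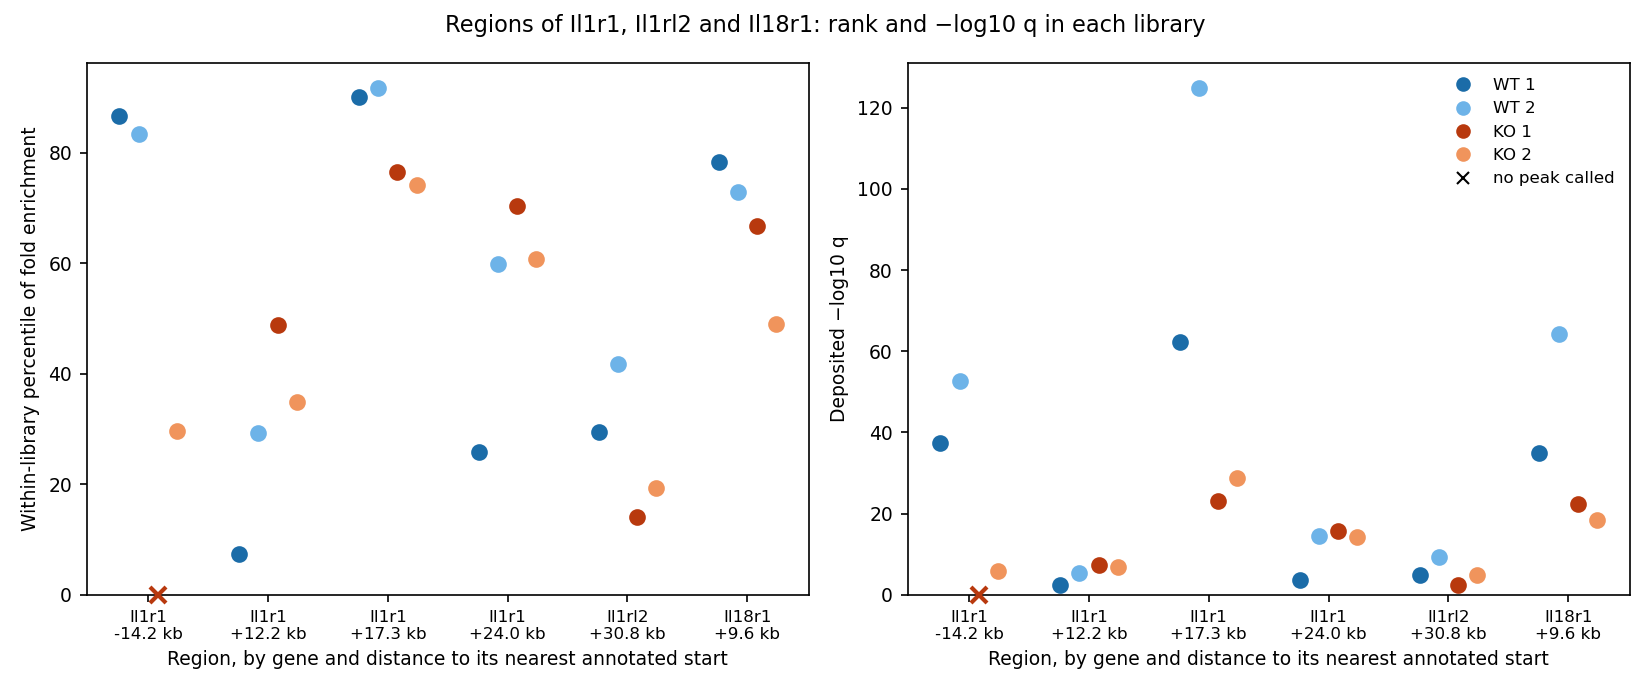
Within-library percentile of fold enrichment (left) and deposited −log10 q (right) in each library at 6 regions, labelled by gene and distance in kb to the gene's nearest annotated start, with a cross at 0 where no peak was called. At −14.2 kb of Il1r1 the WT libraries stand at 86.6 and 83.3 and KO 2 at 29.7, and at +17.3 kb the WT libraries stand above 90 and the KO libraries below 77.

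Over the 15 regions of Il1r1 called in all 4 libraries, the mean percentile was 61.5 in WT 1, 68.6 in WT 2, 68.4 in KO 1 and 66.3 in KO 2. The genotypes overlapped (exact permutation p = 1), and the difference of 2.35 points toward KO turned to −1.19 without WT 1 and −2.49 without KO 1. Of the 15 regions, 2 were higher in both WT, 4 were higher in both KO and 9 overlapped. Over the genome, 13.4% of regions called in all 4 libraries were higher in both WT and 21.0% in both KO. Both directions thus occurred over the genome, but genes holding both were not counted. In the cluster, the regions higher in both WT and in both KO numbered 0 and 4 at Il1r2. They numbered 2 and 0 at Il1rl2, and 2 and 0 at Il18r1.

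Il1rl2, the IL-36 receptor gene just beyond Il1r1, ranked lower in KO as a whole. Its 8 regions called in all libraries had a mean percentile of 52.5 in WT 1 and 53.3 in WT 2, and of 48.1 in KO 1 and 44.3 in KO 2. The genotypes did not overlap, and the mean was lower in KO by 6.74 points (exact permutation p = 0.333). All 8 regions had a lower mean in KO, by 0.0703 to 18.9 points, but in 6 of them the libraries of the genotypes overlapped. Over the genome, 40.5% of regions called in all 4 libraries had a lower mean in KO. The genotypes overlapped in the mean as well once peaks of a −log10 q under 5 were dropped (−5.61 points, KO minus WT, exact permutation p = 0.667), and the difference was −10.6 points without KO 1. Of the 5227 coding genes with at least 5 regions called in all 4 libraries, 7.14% had a mean percentile that was higher in both WT than in both KO libraries, and 16.4% the reverse. Over all such regions of the genome, KO was higher by 2.08 points on average.

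The separated regions of Il1rl2 were in the gene body and beyond it. At chr1:40355381-40355629, inside the gene, the percentile was 29.5 and 41.8 in WT 1 and WT 2, and 14.1 and 19.3 in KO 1 and KO 2. At chr1:40380179-40380446, 12.6 kb past the gene and its highest region on average, it was 78.0 and 79.6 in WT, and 69.4 and 64.3 in KO. A run of 4 regions called in all libraries stood 11.3 to 15.3 kb past the gene, between Il1rl2 and Il1rl1. Il1rl2 had no WT-only and no KO-only region among 13 called in at least 2 libraries.

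Il1r2, the decoy receptor at the other edge, leaned the other way. Its 8 regions called in all libraries had a mean percentile of 64.6 and 66.0 in WT 1 and WT 2, and of 73.7 and 67.3 in KO 1 and KO 2, higher in KO by 5.22 points (exact permutation p = 0.333). The lower KO library stood 1.31 points above the higher WT library, so the separation was narrow. It was lost with ranks taken among shared regions (3.40 points, exact permutation p = 0.667), and the difference was 2.00 points without KO 1 and 9.96 without KO 2. Over the genome, 46785 of 78650 regions called in all 4 libraries had a higher mean in KO, and 21.0% were higher in both KO libraries. At Il1r2 the mean was higher in KO in 7 of the 8 regions, and in 4 both KO libraries stood above both WT libraries. The largest of these was at chr1:40161351-40161527, 36.1 kb past the gene, with percentiles of 57.5 and 43.0 in WT and 60.9 and 63.3 in KO.

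The highest percentile of the cluster was at an Il1r2 region in every library. The region inside the gene at chr1:40116450-40116754 stood at percentile 96.1, 97.0, 97.9 and 97.1 in WT 1, WT 2, KO 1 and KO 2. The region 4501 bp past the gene, at chr1:40129731-40130028, stood at 92.1, 97.9, 94.7 and 96.4. In WT 1 the latter ranked just below the highest region of Il1r1, and its genotypes overlapped. Beside the latter lay the cluster's KO-only region, at chr1:40129492-40129622, with percentiles of 0.648 in KO 1 and 11.2 in KO 2, near the bottom of both lists.

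**Figure D4:**
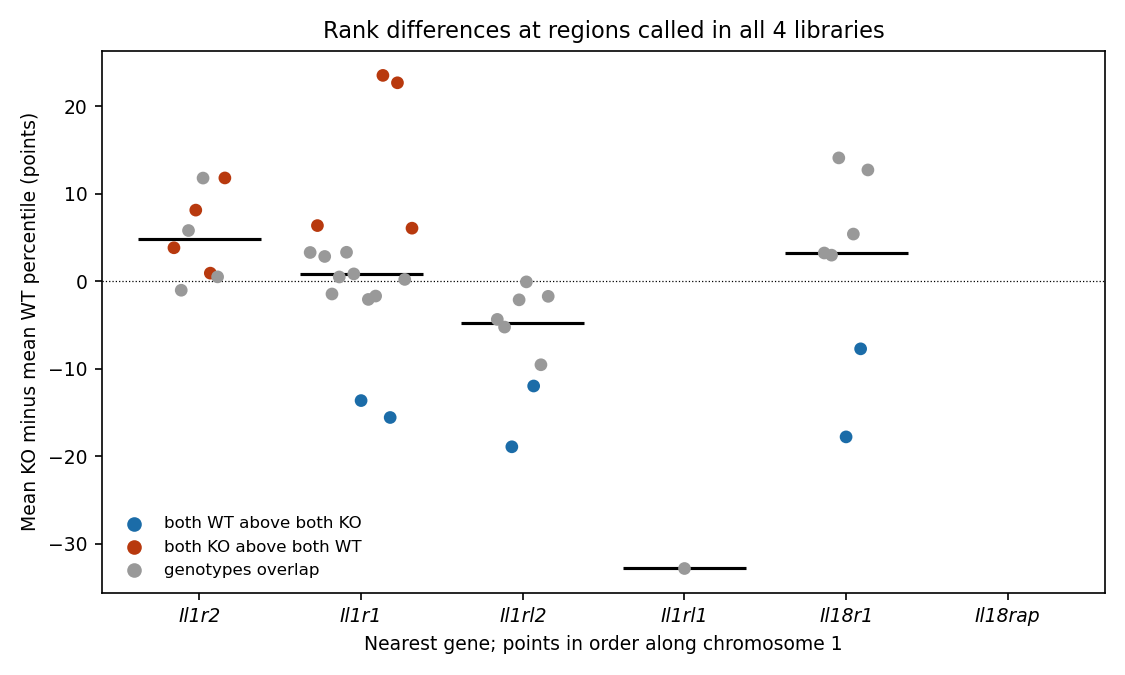
Difference in mean percentile, KO minus WT, in points (y axis) for each of the 39 regions called in all 4 libraries, by gene (x axis), with a black line at the median of each gene and colours for regions whose genotypes did not overlap. The medians are 4.81 at Il1r2, 0.841 at Il1r1, −4.79 at Il1rl2 and 3.23 at Il18r1, with 1 region at Il1rl1 and none at Il18rap.

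Il1rl1, which encodes ST2, had few shared regions. Of its 10 regions 5 were called in 1 library alone, and 1 was called in all 4. Over the genome, 48983 of 171490 regions were called in 1 library alone, and 45.9% in all 4. The Il1rl1 region called in all 4 libraries, chr1:40418596-40418853, lay inside the gene body, which begins at chr1:40404864. It was 10.7 kb before the upstream start of the windows above. The region stood at percentile 52.3 in WT 1, 82.6 in WT 2, 11.3 in KO 1 and 58.0 in KO 2. Its mean was 32.8 points lower in KO, but KO 2 stood above WT 1, so the genotypes overlapped (exact permutation p = 0.667). Its mean was different by −9.47 points (KO minus WT) without KO 1 and by −56.1 without KO 2. The WT-only region of Il1rl1, at chr1:40464031-40464161, stood at 42.8 in WT 1 and 8.21 in WT 2, and its −log10 q values were 6.34 and 2.34. It lay near the end of the gene, next to the start peak of Il18r1.

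Il18r1, the IL-18 binding chain, kept its open start in KO and differed at single regions within the gene. Of its 13 regions 7 were called in all libraries, and none was WT-only or KO-only. At chr1:40475567-40476098, 9.56 kb after the nearest start, the percentile was 78.2 and 72.9 in WT 1 and WT 2, and 66.6 and 48.9 in KO 1 and KO 2. Its −log10 q values were 35.0 (WT 1), 64.3 (WT 2), 22.5 (KO 1) and 18.4 (KO 2), and peak widths were 439 and 532 bp against 410 and 405 bp. At chr1:40479483-40479721 the percentile was 75.3 and 71.3 in WT, and 66.7 and 64.4 in KO. Both WT libraries thus stood above both KO libraries at these 2 regions, while the other 5 overlapped. Over all 7 the mean percentile was 55.6 and 55.7 in WT and 58.9 and 56.0 in KO (exact permutation p = 0.333), a difference of 1.84 points, below the mean of 2.08 over the genome. The genotypes overlapped without peaks of a −log10 q under 5 (0.0330 points), with ranks of −log10 q (0.837 points) and with ranks among shared regions (−2.59 points), each at an exact permutation p = 1. The difference was 3.62 points without WT 1 and 0.374 without KO 1.

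Il18rap, the accessory chain of the IL-18 receptor, was set apart by 1 library and not by genotype. All 3 of its regions were called in WT 2, KO 1 and KO 2 and not in WT 1, a pattern found at 8 of the 69 cluster regions called in at least 2 libraries and at 10.6% of such regions over the genome. At its start, chr1:40515197-40515432, the percentile was 55.9, 38.5 and 65.6 in WT 2, KO 1 and KO 2. At chr1:40524050-40524365 it was 46.8, 3.22 and 31.2, and at chr1:40544761-40544959 it was 66.4, 70.6 and 42.8, both inside the gene. In WT 1 the nearest peak to the start window was 10266 bp away. WT 1 had the shortest list. Over the genome, 3.08% of regions at or above percentile 40 in the other 3 libraries were not called in WT 1. Of the Il18rap regions 1 met that bound, which was chosen after the values were seen. The part of list length in this gap was not tested.

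The rest of the pathway was taken from a list of ligands, co-receptors and adaptors, of which 30 of 31 names matched the gene table. These genes held 10 WT-only and 7 KO-only regions among 203 called in at least 2 libraries (4.93% and 3.45%, beside 2.89% and 4.34% over the genome). The median difference of their 138 regions called in all 4 was 0.570 points, against 1.22 over all such regions of the genome and 0.504 in the cluster. Ligand genes were mostly without a gene-end peak, searched at up to 1 kb. As for the marker lists, the share of all coding genes with such a peak is not given. Il1a, Il1b, Il1f6, Il1f8 and Il1f9, the last 3 encoding IL-36 cytokines, had none in any library, and Il33 had one in KO 2 alone. Il18 had one in every library, but 0 regions were assigned to Il18, so its end peak was counted at another gene. Il1rap, the shared accessory chain of IL-1, IL-33 and IL-36 receptors, had a gene-end peak in every library, with 1 WT-only and 1 KO-only region. The adaptor Myd88, the kinases Irak1, Irak2, Irak3 and Irak4 and the ubiquitin ligase Traf6 had one in every library too. Peli1, a ubiquitin ligase that binds IRAK kinases, had 4 regions of the WT-only and 1 of the KO-only kind, and Tab2 had 2 and 1. Map3k7, which encodes the kinase TAK1, had 0 and 2.

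Among 78 regions called in at least 2 libraries at 7 genes that flank the cluster, 4 were WT-only (5.13%, beside 2.89% over the genome) and 1 was KO-only (1.28%, beside 4.34%). Map4k4, next to Il1r2, had 1 of each kind among 46, and Slc9a4, next to Il18rap, had 1 and 0 among 4.

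The summits of all 4 libraries lay within 50 bp of each other in 19 of 39 cluster regions (48.7%), where 60.1% did over the genome, and the median span was 53 bp against 41 bp. This difference was not tested. In 4 of the 39 cluster regions the span exceeded 100 bp, and 2 of these were at Il1rl2. Over the genome it did in 7191 of 78650 regions.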

How the data were processed

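The authors deposited narrowPeak files with peaks called separately for each of 2 WT and 2 KO libraries, which were grouped by title. Per the submitters' processing notes, the tools were MACS2 2.1.1, Bowtie2 2.3.4.1, deepTools 3.1.2, cutadapt, Trim Galore, bedtools and Picard, with GRCm38 (mm10). Any Tn5 shift or duplicate filter is not stated in the labels. The deposited score is a whole number that followed the −log10 q. The authors' fold enrichment is a ratio set within a library, and the deposited −log10 p and −log10 q were likewise set within each library. All lists ended at a −log10 q of 1. Read totals were not analysed here, so depth is described by list length.

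Regions, calls and percentiles were computed with Python 3.11.15, numpy 2.4.6 and pandas 2.3.3, after the merging and assignment steps were tested on simulated data. A region with several peaks took its highest percentile. Genes came from a RefSeq table of GRCm38 without exons, so exon and intron positions are not given; sequence outside promoter windows was not used here. Library values were compared by exact permutation over the 4 libraries. Every WT-only and KO-only region is named, as are regions whose genotypes did not overlap by at least 20 points, the highest shared region of each gene and pathway genes with at least 2 genotype-specific regions. Members and lists were chosen with earlier results of these data known. Alternatives changed the q threshold (2 or 5), the covered share (0.5), the number of peaks, the distance (20 kb), the ranked measure and the libraries used.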

Additional observations from a re-analysis of the deposited data

How the results depend on the processing

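Counts of genotype-specific regions moved with the rule for presence. With a −log10 q of at least 5, WT-only regions numbered 1 in the cluster and 0 at Il1r1, and KO-only regions of the cluster 0. KO-only regions of the cluster also numbered 0 with a −log10 q of at least 2 and with equal numbers of peaks. Leaving out 1 library relaxed the rule, and gave 7 to 10 WT-only and 1 to 9 KO-only regions in the cluster and 4 to 6 WT-only regions at Il1r1. With the replicate block, intersecting both numbers gave 4 WT-only regions and 1 KO-only region by construction. Number 1 alone gave 12 and 18 in the cluster and 7 and 1 at Il1r1, and number 2 alone 19 and 7, and 8 and 1. Genome shares under these relaxed rules are not given, so the counts are not read as particular to the cluster. Over the genome, 5489 regions were called in WT 1 alone and 17310 in KO 1 alone. Those called in WT 2 alone numbered 16870, and those in KO 2 alone 9314. Deviations of same-numbered libraries correlated at 0.0734 over the 78650 regions called in all 4 libraries and at 0.337 over the 39 of the cluster. The labels do not say what a replicate number marks, and with 2 numbers the libraries were not treated as pairs.

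The mean rank difference of the cluster, 0.0808 points, had no stable sign. It was −0.227 and −0.313 with a −log10 q of at least 2 and 5, −1.37 with ranks of −log10 q, −2.97 with ranks among shared regions, and −3.06 to 2.07 with 1 library left out. Within replicate numbers of the block it was 3.19 and −3.03. For Il1r1 the mean rank difference, 2.35, turned to −0.958 with a −log10 q of at least 5, to −0.942 with ranks among shared regions, and to −2.26 in number 2 of the block, over a range of −2.49 to 5.89 with 1 library left out (−1.19 without WT 1 and −2.49 without KO 1). For Il18r1 it was −2.59 with ranks among shared regions. Those of Il1rl2 (−10.6 to −4.42) and Il1r2 (1.31 to 9.96) kept their sign in all 11 alternatives each, but not the separation of the genotypes. It was lost for Il1rl2 with a −log10 q of at least 5 (−5.61, exact permutation p = 0.667) and for Il1r2 with ranks among shared regions (3.40, p = 0.667). Alternatives for the means of single genes were added after seeing the data.

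With 1 library left out, the difference in peaks of the cluster ran from −11 to 5 (6 in number 1 of the block), in covered base pairs from −3809 to 1257 (793 in number 1), and in mean width from −22.0 to 4.64 bp (2.24 without KO 1). Without WT 2 all 3 turned. With equal numbers of peaks per library, the difference in peaks of the cluster was −5.5 (exact permutation p = 0.333). The difference in peaks of Il1r1 stayed below 0 in all 9 alternatives added for it, from −7.5 to −0.5. The causes were not tested. Read depth limits what a missing call can show.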
